A study of Mus musculus with 12 samples.

Results

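The acyl-CoA thioesterases are enzymes that split an activated fatty acid (an acyl-CoA) into a free fatty acid and coenzyme A (CoA). Their genes were selected by symbol from the deposited table of mouse liver expression, which lists 34986 genes: Acot1, Acot2, Acot3, Acot4, Acot5, Acot6, Acot7, Acot8, Acot12 and Acot13. All 10 genes were found, and all 10 passed the filter on low values (6 or more libraries with a normalized count of 1 or higher), as did 19006 genes of the table. The series addresses the farnesoid X receptor (FXR), a nuclear receptor for bile acids, in liver injury by valproic acid (VPA). RNA was sequenced from flash-frozen livers of female C57BL/6 mice aged 16 weeks. Of these mice, 6 had received VPA together with OCA (group VPA_OCA; OCA is the usual abbreviation of obeticholic acid, an FXR agonist) and 6 had received VPA alone (group VPA). Every mouse had therefore received VPA, and no liver without VPA was analysed here. The labels give no dose and no duration.

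Acyl-CoA thioesterases set, together with the acyl-CoA synthetases that work in the opposite direction, how much fatty acid and how much coenzyme A a compartment of the cell holds in activated and in free form. In the mouse, type I enzymes are encoded side by side in a gene cluster and act in the cytosol (Acot1), the mitochondrial matrix (Acot2) and peroxisomes (Acot3 to Acot6), while type II enzymes are encoded elsewhere and share a different fold. Several type I genes are known targets of the fatty acid receptor PPAR alpha in mouse liver, and valproic acid is itself converted to a CoA ester in liver cells.

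In the coordinates of the authors' table, whose stated build is GRCm38, the 6 type I genes lay in 1 row on the plus strand of chromosome 12. Acot2 (ENSMUSG00000021226) spanned chr12:83987861-83993873, Acot1 (ENSMUSG00000072949) chr12:84009490-84018371 and Acot4 (ENSMUSG00000052392) chr12:84038379-84048601. Acot3 (ENSMUSG00000021228) followed at chr12:84052144-84060402, Acot5 (ENSMUSG00000042540) at chr12:84069325-84076020 and Acot6 (ENSMUSG00000043487) at chr12:84100654-84111349. The row covered 123489 bases, and the gap between neighbours was 3542 bases between Acot4 and Acot3 and 8922 to 24633 bases elsewhere. The type II genes stood apart: Acot7 (ENSMUSG00000028937) at chr4:152178134-152271855 on the plus strand, Acot8 (ENSMUSG00000017307) at chr2:164792768-164804882 on the minus strand, Acot12 (ENSMUSG00000021620) at chr13:91741512-91786148 on the plus strand and Acot13 (ENSMUSG00000006717) at chr13:24817948-24831540 on the minus strand. Spans in GENCODE M21, a mouse gene annotation on GRCm38, were the same for 9 of the 10 genes, Acot8 being the exception.

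The coding sequences of the type I genes are close to each other, which bears on how reads were divided between them. Acot1 and Acot2 had 95.6% identical bases over 1236 aligned coding bases, and every other pair of type I genes 75.3% to 85.8%. The 60 coding bases below are the stretch where Acot1 and Acot2 differ most (10 bases), all on the plus strand of GRCm38; capitals mark bases that differ from Acot1. The Acot1 stretch starts at its start codon (chr12:84009510-84009569), and the Acot2 stretch lies at coding positions 124 to 183 (chr12:83988025-83988084), since the Acot2 reading frame has extra bases at its 5′ end.
Acot1: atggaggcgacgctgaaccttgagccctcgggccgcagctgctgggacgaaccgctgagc
Acot2: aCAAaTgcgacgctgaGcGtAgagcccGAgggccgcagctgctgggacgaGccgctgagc

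In some other stretches both genes read the same letters. In the following 60 coding bases Acot1 (chr12:84016885-84016944) and Acot2 (chr12:83992607-83992666) were identical, whereas the peroxisomal Acot3 (chr12:84058526-84058585) differed at 24 bases and Acot4 (chr12:84043296-84043355) at 32. Capitals again mark differences from Acot1.
Acot1: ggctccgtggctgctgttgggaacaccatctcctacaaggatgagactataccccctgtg
Acot2: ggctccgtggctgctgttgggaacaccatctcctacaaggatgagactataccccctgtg
Acot3: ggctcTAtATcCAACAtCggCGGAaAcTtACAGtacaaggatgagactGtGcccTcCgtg
Acot4: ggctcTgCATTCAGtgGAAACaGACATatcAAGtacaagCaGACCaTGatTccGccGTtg

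Of all 50-base words in the longest-coding transcript of Acot1 in GENCODE M21, 33.6% (748 of 2223) also occurred in transcripts of another gene. The share was 27.7% for Acot2, 22.8% for Acot5, 19.5% for Acot3 (8.3% when the overlapping gene Gm49366 is left out), 6.7% for Acot6 and 4.9% for Acot4, and 0% for Acot7, Acot8, Acot12 and Acot13. The values of Acot1 and Acot2 are therefore uncertain to the extent that reads in shared stretches were assigned to another gene of the cluster, and the same holds for the lower-expressed Acot5 beside Acot3. Of its coding 50-base words Acot1 shared 43.6% with Acot2 and 14.2% with the higher-expressed Acot3. How the authors' counting treated such reads is not given in the sources used here.

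The levels per transcript length of the family spanned more than 3 orders of magnitude on the scale of the authors' FPKM (read counts scaled by transcript length and library size). In VPA_OCA livers Acot13, a type II enzyme associated with mitochondria that binds the phosphatidylcholine transfer protein, had the highest mean level, 185 ± 46.9 FPKM, against 144 ± 37.6 FPKM in VPA livers (SD, n = 6 each, as for all means of a group below). Acot3, a peroxisomal enzyme for long-chain acyl-CoA, had 175 ± 44.1 FPKM in VPA_OCA livers and 180.5 ± 37.2 FPKM in VPA livers, where it ranked first. Acot4, which in the mouse cleaves succinyl-CoA and other dicarboxylic acyl-CoAs in peroxisomes, followed with 97.7 ± 30.1 FPKM in VPA_OCA livers and 112 ± 37.5 FPKM in VPA livers. The cytosolic acetyl-CoA hydrolase Acot12 had 81.9 ± 14.1 and 81.2 ± 10.4 FPKM in VPA_OCA and VPA livers. These 4 genes made up the upper tier, and neighbours in that order had ranges that overlapped within each group.

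In the middle tier stood Acot1, Acot7, Acot8 and Acot2. The level of Acot1 was 22 ± 12.4 FPKM in VPA_OCA livers and 57.0 ± 24.0 FPKM in VPA livers, so that it stood level with Acot7 in VPA_OCA livers and above it in VPA livers. Acot7, a cytosolic enzyme best known from brain, had 22.03 ± 4.39 FPKM in VPA_OCA livers and 22.1 ± 2.15 FPKM in VPA livers. Acot8, a peroxisomal type II enzyme of broad substrate range that includes bile acid CoA esters, had 17.1 ± 3.51 and 19.4 ± 3.23 FPKM in VPA_OCA and VPA livers, and the mitochondrial Acot2 6.15 ± 1.22 and 8.49 ± 2.44 FPKM. At the bottom, Acot6, which in the mouse acts on branched-chain acyl-CoA in peroxisomes, had 0.552 ± 0.133 FPKM in VPA_OCA livers and 0.518 ± 0.185 FPKM in VPA livers, and Acot5, a peroxisomal medium-chain enzyme, 0.0636 ± 0.027 and 0.0479 ± 0.0369 FPKM. Within each group Acot1, Acot7 and Acot8 had overlapping ranges, whereas Acot2 lay below all of Acot8, Acot6 below all of Acot2 and Acot5 below all of Acot6. Both the order and the division into tiers depend on the gene length used. The authors' length equalled the mean over annotated transcripts (within 1 base for 9 of 10 genes). With the length of the longest-coding transcript instead, which is 2.58 times as long for Acot4 and 1.66 times for Acot13, Acot3 ranked first in both groups (116 FPKM in VPA_OCA and 120 FPKM in VPA livers) and Acot13 second (111 and 86.7 FPKM). On that length Acot12 had 39.8 FPKM in VPA_OCA and 39.4 FPKM in VPA livers and Acot4 37.9 and 43.3 FPKM, while Acot1 had 15.3 FPKM in VPA_OCA livers and 39.6 FPKM in VPA livers, where it stood beside Acot4 and Acot12.

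**Figure D1:**
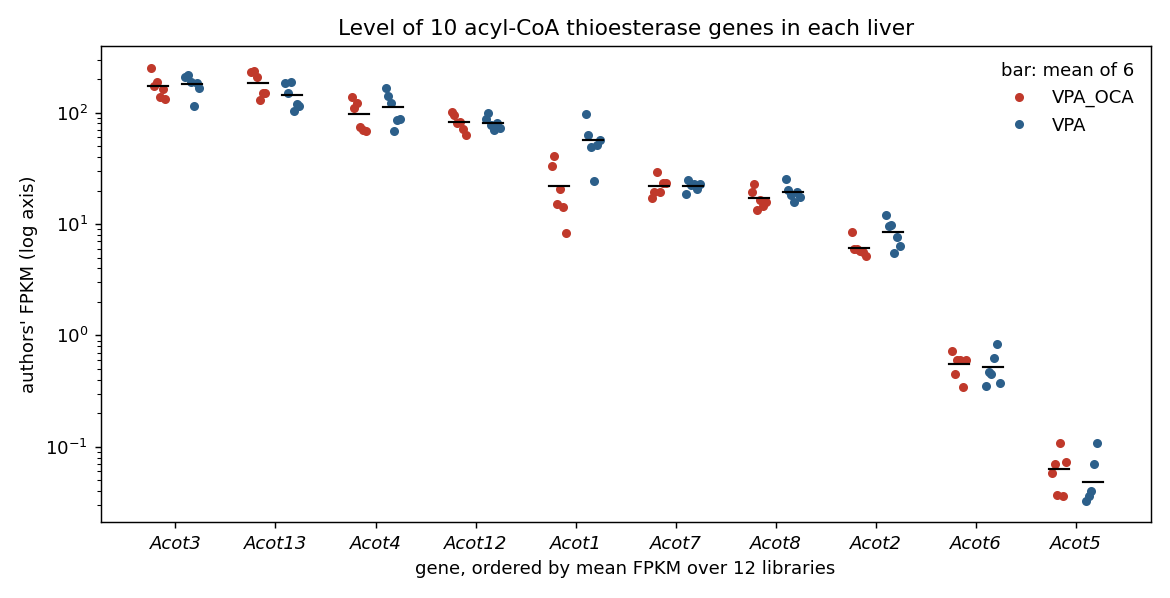
Level of each thioesterase gene in each liver, in the authors' FPKM on a log axis, with VPA_OCA left of VPA and genes ordered by mean over 12 libraries; points are livers and bars the mean of 6. Acot3 and Acot13 stand highest and Acot5 lowest, and the VPA_OCA points of Acot1 and Acot2 lie mostly below their VPA points, with overlap in both genes; the VPA liver in which Acot5 was at 0 has no point on this axis but counts in the mean.

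Adding OCA to VPA was compared gene by gene over all 19006 genes with limma on log2(normalized count + 1), so that a fold change is on that scale. Of the 10 thioesterase genes 0 had a Benjamini-Hochberg adjusted p under 0.05 in limma with group as the only term, where 0.721% of all genes tested had one (0.442% higher and 0.279% lower in VPA_OCA livers). At an unadjusted p under 0.05 there were 2, Acot1 and Acot2, both lower in VPA_OCA livers, against 9.55% of all genes. In the authors' deposited table, made with edgeR according to the submitters' processing notes, 3 of the 9 members with an adjusted p were under 0.05 (Acot1, Acot2 and Acot13), against 5.57% of the 12517 genes with such a value. The log2 fold change was negative for 7 of the 10, with a median of -0.04, beside a median of -0.000503 and 50.1% negative over all genes tested; of the 7, Acot12 at -0.01 was positive when FPKM were used (0.0035). Over all 12 livers 0 members had every VPA_OCA value below or above every VPA value, where 0.526% of all genes lay below and 0.916% above in that way. The libraries fell into 2 sets by replicate number, described next, and with a term for these sets 2 of the 10 passed, Acot1 lower and Acot13 higher, where 2.13% of all genes did (0.789% lower and 1.34% higher).

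Across all genes, the first principal component (40.4% of the variance) separated replicate numbers 1 to 3 from numbers 4 to 6 in both groups. Mitochondrially encoded transcripts made up 9.09% to 11.7% of normalized counts in numbers 1 to 3 and 5.84% to 7.51% in numbers 4 to 6. The labels name no batch, both sets hold 3 livers of each group, and the division was known from an earlier analysis of these data. Estimated depth was 17879222 to 22087711 reads in 11 libraries and 37699449 reads in VPA_OCA replicate 1. Hepatocyte markers were abundant in every library (summed normalized count 1931700 to 3176150 in VPA_OCA livers and 2198380 to 3174360 in VPA livers). No tested gene of the marker lists for hepatocytes or 10 other cell types passed the threshold with group alone. Of the pancreatic markers 1 of 4 was tested, of skeletal muscle 2 of 5, and of adipocyte and neuronal markers 3 of 4 each. The pancreatic marker Ins2 and the neuronal marker Nefl were at 0 in every library, but other genes of their lists were not. Cela1 of the pancreatic list had 174.2 to 337 normalized counts in VPA_OCA livers and 171.3 to 305.8 in VPA livers. Syt1 of the neuronal list had 177.4 to 275.9 in VPA_OCA livers and 165 to 228.6 in VPA livers. With the term for number sets 1 marker passed, the endothelial gene Lyve1, which had 105 ± 23.5 normalized counts in VPA_OCA livers and 164 ± 32.5 in VPA livers (limma adjusted p = 0.0314 with the term and 0.115 with group alone). The 5 endothelial markers summed to 1854 to 2791 in VPA_OCA livers and 1865 to 3370 in VPA livers, and their part in the results on Acot1 and Acot13 with that term was not tested. Skeletal muscle markers summed to 437 in VPA replicate 4 and 103 in VPA replicate 5, against 12.98 to 22.8 in VPA_OCA livers and 5.27 to 15.04 in the other VPA livers. In whole liver, fewer cells of a type and less RNA per cell cannot be told apart.

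Acot1, the cytosolic type I enzyme for long-chain acyl-CoA, showed the largest difference of the family. Its normalized count in VPA_OCA livers was lowest at 272.5, with a median of 598.9 and a highest value of 1408, against a lowest value of 803.4, a median of 1842.5 and a highest value of 3422 in VPA livers. VPA_OCA replicates 3 to 6 lay below all VPA livers, but the groups overlapped, with VPA_OCA replicates 1 and 2 (1105 and 1408) above VPA replicate 4 (803.4). The log2 fold change was -1.47 ± 0.37 (SE; 95% confidence interval -2.26 to -0.683), a 2.77-fold lower value in VPA_OCA livers, with a limma adjusted p of 0.101 over all genes.

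Acot1 differed in the same direction in each number set and without overlap in either. In numbers 1 to 3 it averaged 999 ± 470 in VPA_OCA livers (485.4 to 1408) and 2378 ± 915 in VPA livers (1717 to 3422), a log2 fold change of -1.32 (limma adjusted p = 0.155). In numbers 4 to 6 it averaged 488 ± 220 in VPA_OCA livers (272.5 to 712.4) and 1496 ± 612 in VPA livers (803.4 to 1961), a log2 fold change of -1.62 (limma adjusted p = 0.146; SD, n = 3 in each). Of all genes tested, 1.24% were lower in VPA_OCA livers without overlap in both sets. With the set term Acot1 fell by 1.47 on the log2 scale in VPA_OCA livers with a limma adjusted p of 0.0143 (95% confidence interval -2.09 to -0.849), and with the replicate number as a block the adjusted p was 0.0246. With that block Acot1 was the 1 member that passed, where 1.1% of all genes did (0.426% lower). The block takes same-numbered livers as pairs, which these data do not show beyond the number sets. In numbers 1 to 3 alone and in numbers 4 to 6 alone 0 of the 10 members passed in limma, against 0.637% and 0.5% of all genes. The effect did not pass a test of difference between the sets (difference -0.30, limma adjusted p = 0.919). Of the 10 members 0 passed that test at an adjusted p under 0.05 (0.0105% of all genes) and 0 had an unadjusted p under 0.05 (8.36% of all genes).

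The call on Acot1 rested on which libraries entered. Without VPA_OCA replicate 2 the limma adjusted p was 0.0354 and without VPA replicate 4 it was 0.037, and over all 12 omissions of 1 library it ranged from 0.0354 to 0.209, with log2 fold changes of -1.70 to -1.22. Without VPA replicates 4 and 5, which carried the muscle markers, the log2 fold change was -1.77 (limma adjusted p = 0.0507). These libraries belong to numbers 4 to 6, where Acot1 was lower in both groups. Their omission therefore also left the number sets unequal among VPA livers.

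Acot2, the mitochondrial matrix enzyme and the closest paralog of Acot1, had a lowest value of 235.3, a median of 270.5 and a highest value of 396.1 normalized counts in VPA_OCA livers, against 253.3, 391.25 and 587.3 in VPA livers. The groups overlapped. The log2 fold change was -0.44 ± 0.182 (SE; 95% confidence interval -0.831 to -0.0554), a 1.36-fold lower value in VPA_OCA livers that missed the threshold with group alone (limma adjusted p = 0.437), with the set term (0.0933) and with the replicate block (0.108). In numbers 1 to 3 Acot2 averaged 318 ± 69.0 in VPA_OCA livers and 494 ± 84.2 in VPA livers with no overlap, and in numbers 4 to 6 it averaged 257 ± 19.8 in VPA_OCA livers and 307 ± 52.9 in VPA livers with overlap (SD, n = 3 in each). How many of all genes lack overlap in 1 set alone was not determined, so the separation of Acot2 in numbers 1 to 3 is a description only. The difference between the sets, 0.40 on the log2 scale, had an unadjusted limma p of 0.115 and an adjusted p of 0.685.

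The ratio of Acot1 to Acot2 in normalized counts was 2.51 ± 1.29 in VPA_OCA livers (1.16 to 4.86) and 4.76 ± 1.23 in VPA livers (3.17 to 6.38). The mean ratio was lower in VPA_OCA livers, but the ranges overlapped, the ratio was given no test, and reads shared by both genes can move it.

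**Figure D2:**
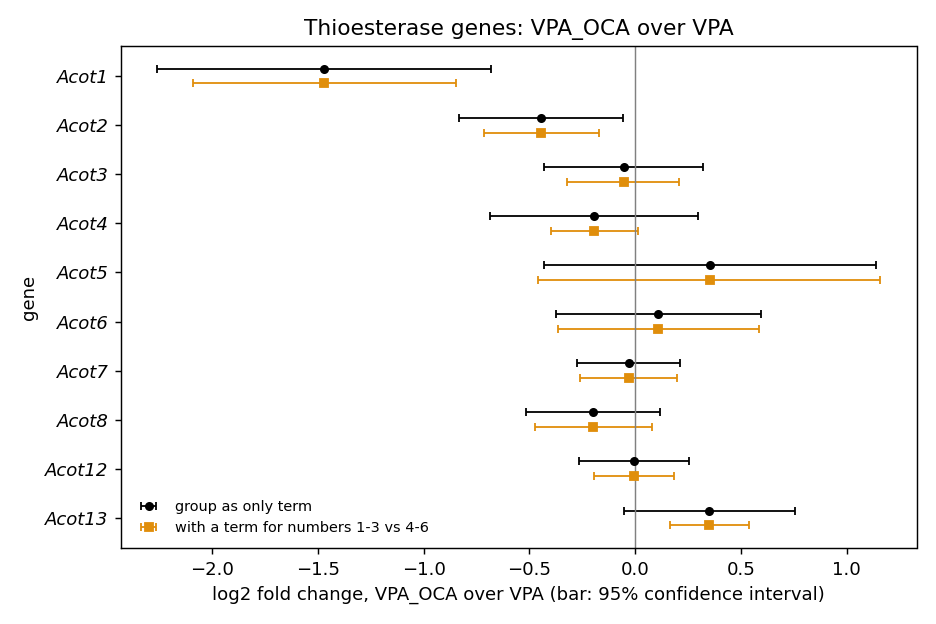
Log2 fold change of each thioesterase gene, VPA_OCA over VPA, from limma with group as the only term (circles) and with a term for replicate numbers 1 to 3 against 4 to 6 (squares); bars are 95% confidence intervals. With group alone the intervals of Acot1 and Acot2 lie below 0 and the other 8 include 0, and with the set term that of Acot13 lies above 0.

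Among the peroxisomal type I enzymes no member passed the threshold with group alone or with the set term. Acot3 had normalized counts of 6362 to 12220 in VPA_OCA livers (median 8375) and 5415 to 10620 in VPA livers (median 9193.5), and its log2 fold change of -0.05 had a 95% confidence interval of -0.429 to 0.32. Acot4 had 3462 to 7010 in VPA_OCA livers (median 4886.5) and 3402 to 8765 in VPA livers (median 5535), with a log2 fold change of -0.19 (95% confidence interval -0.684 to 0.299). The means of both genes differed more between the number sets than between the groups: Acot4 averaged 6313 ± 612 in VPA_OCA and 7378 ± 1222 in VPA livers of numbers 1 to 3, against 3669 ± 228 in VPA_OCA and 4155 ± 657 in VPA livers of numbers 4 to 6.

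Acot6 had 25.95 to 53.52 normalized counts in VPA_OCA livers and 27.24 to 62.82 in VPA livers, with a log2 fold change of 0.11 (95% confidence interval -0.375 to 0.595). Acot5 lay at 1.1 to 3.439 in VPA_OCA livers and 0 to 3.372 in VPA livers, a level of a few reads at which a difference was not detectable (limma adjusted p = 0.85; 95% confidence interval -0.431 to 1.14).

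The cluster as a whole differed less than Acot1. The 6 type I genes summed to 14558 ± 3826 normalized counts in VPA_OCA livers (10377.9 to 20786.4) and 16956 ± 4536 in VPA livers (9921.47 to 23422.6), a log2 ratio of -0.22 that was given no test. Within the cluster's summed FPKM, Acot1 held 7.07% ± 3.12 in VPA_OCA livers (3.82% to 12.2%) and 15.5% ± 3.11 in VPA livers (11.5% to 20.2%), ranges that barely overlapped. Acot3 held 58.5% ± 4.15 in VPA_OCA livers and 51.1% ± 4.30 in VPA livers, and Acot4 32.1% ± 3.001 and 30.9% ± 3.28. Of the summed FPKM of all 10 genes (608 ± 138 in VPA_OCA and 625 ± 137 in VPA livers), the cluster held 49.3% ± 2.71 in VPA_OCA livers and 56.8% ± 3.91 in VPA livers. These shares contain Acot1 and are no separate evidence of its difference.

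Of the genes within 100 kb of the cluster, 8 were tested and none passed the threshold with group alone (limma) or with the set term. The nearest on the side of Acot2 was the ribosomal oxygenase Riox1, which had 103 ± 10.96 normalized counts in VPA_OCA livers and 132 ± 21.5 in VPA livers (log2 fold change -0.35, limma adjusted p = 0.328). Numb, a regulator of Notch signalling farther out, had 566 ± 41.2 in VPA_OCA and 567 ± 52.4 in VPA livers. The antisense gene 4732463B04Rik overlaps Acot4 over 9133 bases and Acot3 over 1664 bases and was listed at 17.6 ± 2.86 in VPA_OCA and 17.05 ± 4.36 in VPA livers. Whether strand was used in counting is not given in the sources used here, so reads of Acot4, Acot3, Acot8 and Acot12 and of genes on the opposite strand may not have been told apart. The protein-coding gene Gm49366, which overlaps Acot4 over 9667 bases and Acot3 over 6470 bases on the same strand, was listed at 0 in every library.

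Acot13 was the member with the largest positive difference apart from the barely detected Acot5. In VPA_OCA livers its lowest normalized count was 1241, its median 1622.5 and its highest 2259, against 938, 1219 and 1814 in VPA livers, and the groups overlapped. The log2 fold change was 0.35 ± 0.19 (SE; 95% confidence interval -0.0536 to 0.756), a 1.28-fold higher value in VPA_OCA livers with a limma adjusted p of 0.616. Within the number sets the groups did not overlap: Acot13 averaged 2087 ± 207 in VPA_OCA livers (1858 to 2259) and 1644 ± 274 in VPA livers (1328 to 1814) of numbers 1 to 3, and 1330 ± 78.3 in VPA_OCA livers (1241 to 1387) and 1047 ± 94.5 in VPA livers (938 to 1110) of numbers 4 to 6 (SD, n = 3 in each). Of all genes tested, 2.18% were higher in VPA_OCA livers without overlap in both sets. The log2 fold change was 0.35 in either set (limma adjusted p = 0.351 in numbers 1 to 3 and 0.191 in numbers 4 to 6).

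With the set term Acot13 rose in VPA_OCA livers with a limma adjusted p of 0.0499, just inside the threshold (95% confidence interval 0.165 to 0.537), and with the replicate block the adjusted p was 0.116. Without VPA replicates 4 and 5, and with group alone, its log2 fold change was 0.17 (limma adjusted p = 0.834). Both omitted libraries belong to numbers 4 to 6, where Acot13 was lower in both groups.

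**Figure D3:**
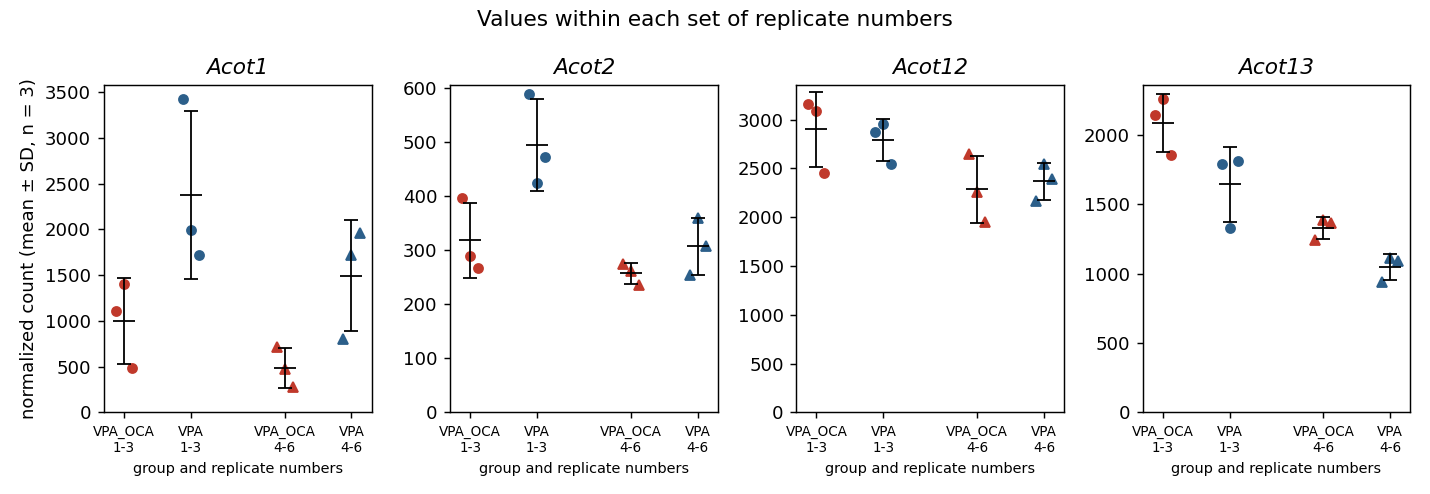
Normalized counts of Acot1, Acot2, Acot12 and Acot13 in replicate numbers 1 to 3 and 4 to 6, with VPA_OCA left of VPA in each set; points are livers, and bars give the mean and SD of 3. Acot1 is lower and Acot13 higher in VPA_OCA livers without overlap in both sets, Acot2 overlaps in numbers 4 to 6, and Acot12 overlaps in both.

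The other type II genes were within the spread between livers. The acetyl-CoA hydrolase Acot12 had 1953 to 3157 normalized counts in VPA_OCA livers and 2168 to 2959 in VPA livers, a log2 fold change of -0.01 (95% confidence interval -0.266 to 0.255). Acot7 had 397.6 to 665.3 in VPA_OCA livers and 450.2 to 553.3 in VPA livers, a log2 fold change of -0.03 (95% confidence interval -0.274 to 0.213). The peroxisomal Acot8 had 252.3 to 458.7 in VPA_OCA livers and 301.3 to 508.4 in VPA livers, a log2 fold change of -0.20 (95% confidence interval -0.514 to 0.118). The intervals of Acot7 and Acot12, the narrowest of the family, both lie within -0.274 to 0.255 on the log2 scale.

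The RefSeq promoter table (GRCm38.p6) held 8 of the 10 genes, from 250 bases before to 50 bases after the start. These windows were searched on both strands for 2 copies of AGGTCA in the same orientation with 1 base between them, the direct repeat that PPAR alpha is known to bind with its partner receptor. Of 32841 promoters 0.554% held a match with at most 1 mismatch, 3.86% with at most 2 and 24.65% with at most 3. Acot12 held a match with 1 mismatch that starts at position -110 on the minus strand, and Acot4 one with 2 mismatches at position -13. The nearest match had 3 mismatches in Acot2, Acot3 and Acot5, 4 in Acot1 and Acot7 and 5 in Acot8. For AGGTCA, 1 base and the reverse complement TGACCT, the inverted repeat known to be bound by FXR with the same partner, Acot12 had 2 mismatches at position -117 (1.14% of all promoters had at most 2), in letters that overlap its direct repeat, and every other member had 4 or more. The promoters of Acot1, which had the largest difference, and of Acot12, which had the closest matches and a log2 fold change near 0, are shown over the 250 bases before the start. Capitals mark the CCAAT box of Acot1, a common promoter element that 37.4% of all promoters hold, and the direct repeat match of Acot12. Acot1 is at chr12:84009252-84009501 and Acot12 at chr13:91741271-91741520, both on the plus strand.
Acot1: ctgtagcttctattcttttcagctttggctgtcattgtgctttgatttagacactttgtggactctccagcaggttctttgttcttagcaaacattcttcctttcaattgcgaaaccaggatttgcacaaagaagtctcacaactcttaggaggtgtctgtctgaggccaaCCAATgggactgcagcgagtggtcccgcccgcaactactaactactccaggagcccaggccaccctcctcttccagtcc
Acot12: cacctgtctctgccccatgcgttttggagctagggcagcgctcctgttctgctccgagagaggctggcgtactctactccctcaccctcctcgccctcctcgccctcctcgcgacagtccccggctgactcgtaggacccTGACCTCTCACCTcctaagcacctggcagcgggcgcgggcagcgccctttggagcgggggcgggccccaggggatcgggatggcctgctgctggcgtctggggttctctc

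A match in such a window is a description of its letters. Despite 95.6% identity in coding bases, the promoter windows of Acot1 and Acot2 had 56.2% identical bases, within the 56.1% to 63.4% found between promoter windows of different type I genes. Such values were not particular to type I genes. With type II promoters the Acot1 window had 56.2% (Acot8), 60.6% (Acot7) and 61.9% (Acot12) identical bases.

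The genes that act around the thioesterases were followed in 5 lists. Of the related thioesterases and acyltransferases 6 of 8 were tested and 0 passed the threshold (limma, with group alone and with the set term), with a median log2 fold change of -0.05. Among them the mitochondrial thioesterase Them4 had 374 ± 101 normalized counts in VPA_OCA livers and 503 ± 154 in VPA livers (limma adjusted p = 0.53). Acnat2, a relative of the bile acid conjugating enzyme Baat, had 1135 ± 341 in VPA_OCA livers and 1360 ± 336 in VPA livers (0.734).

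Of the acyl-CoA synthetases, which make the thioesterases' substrates, 18 of 19 were tested, and the median log2 fold change was -0.11. In limma with group alone 0 were higher and 1 was lower in VPA_OCA livers, beside 0.442% and 0.279% of all genes. The lower one was Slc27a1, a fatty acid transport protein with synthetase activity, at 160 ± 31.4 normalized counts in VPA_OCA livers (109.9 to 195.6) and 279 ± 61.1 in VPA livers (206 to 386.8). These groups did not overlap, and 0.526% of all genes tested had every VPA_OCA value below every VPA value. Slc27a1 fell by 0.80 on the log2 scale in VPA_OCA livers (SE 0.162), 1.74-fold, with a limma adjusted p of 0.0329. The medium-chain synthetase Acsf2 had 2249 ± 677 in VPA_OCA livers and 2794 ± 340 in VPA livers (limma adjusted p = 0.556), and Acsm5 2115 ± 279 and 1852 ± 213 (0.656).

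Of 13 genes of CoA synthesis and breakdown 0 passed the threshold (limma, group alone), with a median log2 fold change of 0.02. Nudt7, which breaks down CoA in peroxisomes, had 4042 ± 381 normalized counts in VPA_OCA livers (3679 to 4624) and 2815 ± 785 in VPA livers (1994 to 4006), a log2 fold change of 0.56 with a limma adjusted p of 0.139, and 0.0581 with the set term. The pantetheinase Vnn1 had 1657 ± 412 in VPA_OCA livers and 2708 ± 1065 in VPA livers (log2 fold change -0.65, limma adjusted p = 0.307).

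PPAR alpha and genes it is known to induce in mouse liver had the lowest median of the lists, -0.20, and 25 of the 28 had a negative log2 fold change, where 50.1% of all genes tested did. In limma with group alone 0 were higher, 2 were lower and 26 did not pass, beside 0.279% of all genes called lower. The fatty acid omega-hydroxylases Cyp4a14 and Cyp4a31 were those that fell, with limma adjusted p of 0.0131 and 0.00441; Cyp4a14 had 3490 to 11330 normalized counts in VPA_OCA livers and 10150 to 31640 in VPA livers. With the set term the lipid droplet protein Plin4 fell as well (106 ± 67.7 in VPA_OCA livers and 342 ± 189 in VPA livers, limma adjusted p = 0.115 with group alone and 0.00488 with the term), which made 3 of 28 lower, beside 0.789% of all genes with that term. Vnn1 stands in this list and in that of CoA synthesis and breakdown, and Fabp1 in this list and among the acyl-CoA binding proteins. Acot1 had a log2 fold change between those of Cyp4a14 (-1.63) and Cyp4a31 (-1.26), while Acot2, Acot3 and Acot4, which some studies also count among PPAR alpha targets, had -0.44, -0.05 and -0.19.

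Of 7 acyl-CoA binding proteins, which carry acyl-CoA between enzymes, 0 passed the threshold in limma, with a median log2 fold change of -0.04. Among them Dbi had 14942 ± 1590 normalized counts in VPA_OCA livers and 15627 ± 1941 in VPA livers (limma adjusted p = 0.933).

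**Figure D4:**
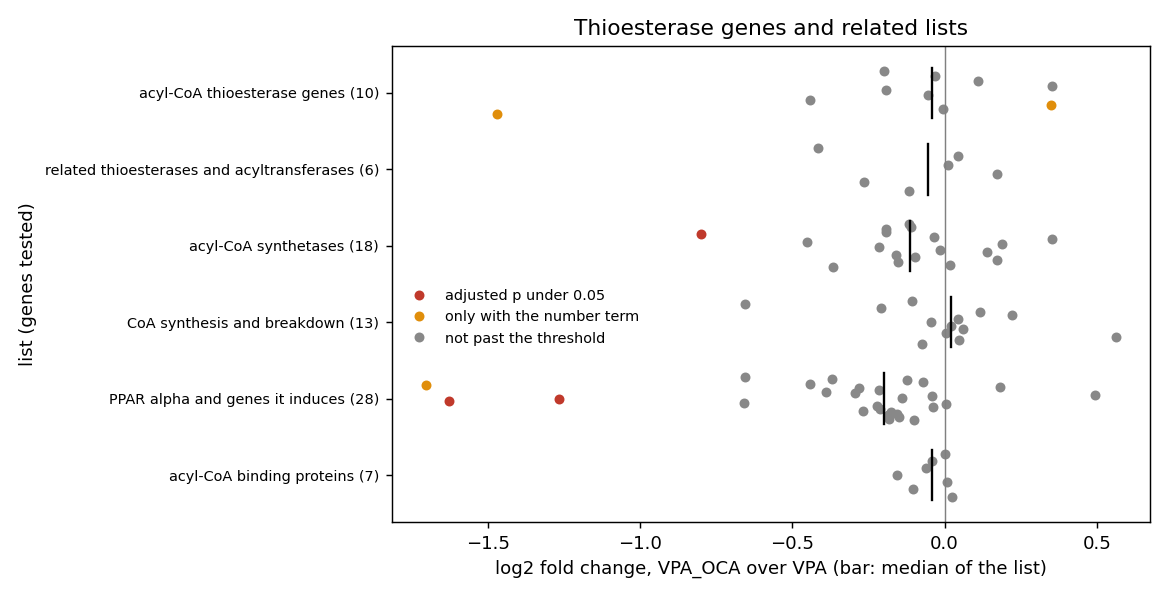
Log2 fold change, VPA_OCA over VPA, of the thioesterase genes and of the tested genes of 5 related lists; points are genes, bars list medians, red marks a limma adjusted p under 0.05 with group alone and orange one reached with the term for number sets only. Acot1 and Acot13 are the orange points of the top row, Slc27a1 is the red point among the synthetases, and the points of the PPAR alpha list lie mostly left of 0.

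Variation between livers of the same group and number set was compared as a description. Residuals of log2 values after both terms were correlated over the 12 libraries between Acot1 or Acot13 and 12100 other named genes with a mean of at least 10; all livers share the tissue, and since the highest values were selected no p is given. For Acot1 the highest were Nmrk1, a nicotinamide riboside kinase (Pearson r = 0.956, Spearman rho = 0.951, and r = 0.93 without the 2 libraries farthest from the median), Pbld2 (r = 0.953), the sorting nexin Snx16 (0.946), the peroxisomal beta-oxidation enzyme Hsd17b4 (0.941) and the acyl-CoA dehydrogenase Acad11 (0.924). None of these 5 passed the threshold between the groups in limma: Acad11 had 7921 ± 893 normalized counts in VPA_OCA livers and 8971 ± 710 in VPA livers (adjusted p = 0.613), and Nmrk1 1124 ± 458 and 936 ± 294 (0.867). Without those 2 libraries r was 0.876 for Acad11 and 0.898 for Hsd17b4. Within the family Acot1 was closest to Acot12 (r = 0.874, and 0.776 without the same 2 libraries) and Acot8 (r = 0.805), both on other chromosomes and with 0% of their 50-base words in other genes.

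For Acot13 the highest were Tgfb3 (r = 0.979, at a low level of 16.7 ± 3.69 in VPA_OCA and 19.5 ± 5.64 in VPA livers), the aldo-keto reductase Akr1c12 (0.949), the respiratory complex I subunits Ndufb5 (0.947) and Ndufa5 (0.94), and Txndc17 (0.933). Without the 2 libraries farthest from the median these were 0.95, 0.868, 0.864, 0.883 and 0.87 in the same order. Within the cluster Acot4 varied with Acot3 (r = 0.779) and Acot2 (r = 0.774). Acot7 varied inversely to Acot8 (r = -0.802), Acot12 (r = -0.708) and Acot1 (r = -0.672). Plain correlations of the log2 values, with group and set left in, were -0.663, -0.552 and -0.347 in the same order. VPA_OCA replicate 3 had the highest normalized count of Acot7 (665.3) and the lowest of Acot8 (252.3), and r without this library was not computed.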

How the data were processed

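Liver RNA of 12 mice (6 VPA_OCA, 6 VPA) was extracted with Trizol and made into TruSeq RNA libraries, per the labels' protocols; groups and numbers come from sample titles. The authors deposited 1 table. Its normalized counts, per the file headers, are a signal per gene scaled by library, not raw counts: 80.3% to 84.9% of low values lay within 0.1 of a whole multiple of a library's step (values up to 20 steps), so whole reads were not recovered and no count test was run, which the design had allowed for. The FPKM, p-values, GC fraction and gene length are the authors' too, per the file headers. The submitters' processing notes name edgeR and GRCm38.p5; for aligner, counter, annotation and strand the sources used here give nothing. Cells that combined a decimal comma with an exponent (89 normalized counts, 129 FPKM values, 238 p-values and 88 adjusted p-values) were 1000 times too large and were scaled down. Recomputation of the adjusted p-values over the authors' 12517 present genes then came within 0.538% of theirs. No per-sample column was left unused.

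Members and lists were chosen with earlier results of these data known. Genes that reached 1 in 6 or more libraries were tested by limma 3.58.1 (R 4.3.3) with an intensity trend on log2(value + 1), Benjamini-Hochberg adjusted over 19006 genes, threshold 0.05. The code for the fit with group alone was checked on simulated data that held no number sets. The fits with the set term, the replicate block and the difference between sets were not checked in this way. The named genes are all 10 members, up to 4 genes per list with the smallest p, and the 5 genes most alike to Acot1 and to Acot13. Titles number the replicates 1 to 6 in both groups. The deviations of same-numbered livers from their group means correlated at 0.15 to 0.478 in all 6 pairs. Only 2 of 6 livers matched their own number best, and matches followed the sets 1 to 3 and 4 to 6. These data therefore show the sets but not a pairing by single number, and no litter or day is stated. The replicate block was run as an alternative only. Per the labels, each library is from 1 mouse of 6 per group. Library sums were 20236900 to 22087711. The 30 pairs of libraries within groups differed by 17.28 to 185.78 times sampling variance, so none was a duplicate. Alternatives were other filters, pseudocounts, scalings, FPKM, no trend, array weights, thresholds, block, set term, each set alone, and omission of libraries. Coding sequences were aligned with MAFFT 7.526, and promoters are from RefSeq (GRCm38.p6), 8 symbols matched.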

Additional observations from a re-analysis of the deposited data

Results flagged for a closer look

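In groups of 6 livers, a value was listed when its gap to the nearest other value exceeded Dixon's 95% critical share of the group's range; 4 of 84 groups of values met this, and chance gives about 1 in 20. Acot2 in VPA_OCA replicate 1 was at 396.1 normalized counts, with the next VPA_OCA liver at 289.8 and the lowest at 235.3. Acnat2, a relative of Baat, was at 1813 in VPA_OCA replicate 2, with the next at 1116. Dbi, the acyl-CoA binding protein, was at 11930 in VPA replicate 2, with the next VPA liver at 15650. The estimated depth of VPA_OCA replicate 1 was 37699449 reads, with the next VPA_OCA library at 21130528.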

How the results depend on the processing

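With group as the only term 137 genes passed the threshold (84 higher, 53 lower in VPA_OCA livers) and 0 of 10 thioesterase genes. The count of genes was 210 with the replicate block, 404 with the term for number sets, 223 at a threshold of 0.10 and 62 at 0.01. Limma without a trend gave 97 (71 higher, 26 lower). The count of thioesterase genes was 1 with array weights (Acot1, adjusted p 0.0272), 1 with the replicate block (Acot1) and 2 with the set term (Acot1 and Acot13). The block changed no other call on a member. Leaving out 1 library gave 92 to 146 genes, 0 to 1 members (Acot1 without VPA_OCA replicate 2 or VPA replicate 4) and a log2 ratio of the summed cluster of -0.349 to -0.105. Members with a log2 fold change near 0 changed sign, in each case without passing the threshold: Acot6 was at 0.11 with all libraries, at 0.43 in numbers 1 to 3 alone and at -0.21 in numbers 4 to 6 alone, and Acot12 was at 0.0035 on FPKM and at 0.048 in numbers 1 to 3 alone. When 1 library was left out, Acot3 ranged over -0.189 to 0.022, Acot7 over -0.11 to 0.038 and Acot12 over -0.066 to 0.072. Acot1, Acot2, Acot4, Acot5, Acot8 and Acot13 kept their sign under every alternative run. The cause of these shifts was not tested. For Acot1 the adjusted p was 0.135 on FPKM and 0.207 without a trend. A filter of at least 5 left Acot5 untested, whose level is that of a few reads.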
